A study of Mus musculus with 10 samples.

Results

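The Gimap genes encode a small family of GTPases found mostly in lymphocytes. The 8 members described here (Gimap1, Gimap3, Gimap4, Gimap5, Gimap6, Gimap7, Gimap8 and Gimap9) were taken by symbol from a table of 17658 genes, and all 8 were listed and passed the filter on low values that left 10225 genes for testing. RNA sequencing was done on B cells from spleen and lymph node of C57BL/6 mice aged 10 weeks, enriched by magnetic removal of other cells. The mice were Nr4a1+/+ (wild type, WT) or Nr4a1-/- (knockout, KO), and cells were left unstimulated (agent none, 1 library per genotype) or were given anti-IgM, which crosslinks surface IgM and so mimics antigen, at 10 µg/mL for 2 hours (4 libraries per genotype, lettered A to D). By its design text the series looked for induced genes whose expression depends on genotype. The labels do not name the knockout allele or say whether a letter is a separate mouse, so p-values measure the spread between these libraries, which may be technical.

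Levels are the authors' FPKM, which scale fragments by transcript length and by library total, so they can be compared between genes. The table carries no read totals, so the depth behind a value is not known and precision is read from the spread between libraries. The listed FPKM summed to 557214 to 571784 in the stimulated libraries, 674961 in unstimulated WT and 595500 in unstimulated KO. The letter B libraries had the highest summed myeloid markers in both genotypes, mostly Lyz2, and results are given without them where that matters. Nr4a1 itself was at 126 FPKM in both unstimulated libraries, at 744 to 856 FPKM in stimulated WT and at 660.2 to 760.0 FPKM in stimulated KO. These ranges overlap, so the gene does not check the labels, and genotypes below are those of the labels.

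Proteins of the Gimap family share a GTP-binding domain related in fold to that of the septins, and several are anchored in membranes of the endoplasmic reticulum, Golgi or lysosome. They are known for keeping resting lymphocytes alive: mice that lack Gimap5 lose lymphocytes, Gimap1 is needed for mature B and T cells, and Gimap6 binds the autophagy protein Gabarapl2. Nr4a1 (Nur77) belongs to the nuclear receptors and is switched on by antigen receptor signals.

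The family lies in a single block on mouse chromosome 6. In RefSeq's annotation of GRCm38.p6 (the submitters' processing notes name mm10, the same assembly) it runs from Gimap8 to Gimap3 over 124 kb, chr6:48647186-48770851. The order is Gimap8, Gimap9, Gimap4, Gimap6, Gimap7, Gimap1, Gimap5 and Gimap3, with Gimap6 and Gimap3 on the minus strand and the other 6 on the plus strand. Gimap1 (48739047 to 48743795) and Gimap5 (48746197 to 48754200) are direct neighbours. The 250 bases before the annotated start are shown for 4 members at the ends of the response described below: Gimap7 and Gimap1, which fell most with anti-IgM, and Gimap5 and Gimap4, which changed least. They are from RefSeq, read 5′ to 3′ along the gene, and capitals mark matches on either strand to the motifs described next. For Gimap1 and for Gimap6 (not shown) the first 40 bases after the RefSeq start were not found in a GENCODE M21 transcript, so these windows may not lie next to the start used in these cells.
Gimap7, chr6:48718371-48718620, plus strand: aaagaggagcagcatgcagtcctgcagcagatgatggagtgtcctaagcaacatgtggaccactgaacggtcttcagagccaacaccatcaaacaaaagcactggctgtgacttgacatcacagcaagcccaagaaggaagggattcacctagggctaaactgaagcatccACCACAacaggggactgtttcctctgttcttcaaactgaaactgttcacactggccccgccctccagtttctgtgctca
Gimap1, chr6:48738797-48739046, plus strand: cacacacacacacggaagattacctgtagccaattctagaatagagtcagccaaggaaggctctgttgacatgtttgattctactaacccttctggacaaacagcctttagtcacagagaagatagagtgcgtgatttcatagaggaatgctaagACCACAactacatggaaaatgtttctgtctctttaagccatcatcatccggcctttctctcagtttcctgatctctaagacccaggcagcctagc
Gimap5, chr6:48745947-48746196, plus strand: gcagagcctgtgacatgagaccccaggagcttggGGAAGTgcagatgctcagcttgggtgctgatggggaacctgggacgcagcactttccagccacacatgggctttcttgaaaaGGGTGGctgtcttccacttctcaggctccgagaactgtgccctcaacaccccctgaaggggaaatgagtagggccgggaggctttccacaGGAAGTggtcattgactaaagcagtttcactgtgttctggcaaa
Gimap4, chr6:48684328-48684577, plus strand: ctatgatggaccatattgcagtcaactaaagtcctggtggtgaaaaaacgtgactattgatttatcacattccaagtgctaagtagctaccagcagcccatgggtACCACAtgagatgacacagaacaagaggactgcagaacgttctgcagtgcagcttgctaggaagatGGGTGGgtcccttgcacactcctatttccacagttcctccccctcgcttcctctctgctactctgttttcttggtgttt

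Motifs were searched on both strands of the 250 bases before the start of each member and of 32851 RefSeq promoters of the same length. All 8 members matched, with 9 windows, since Gimap8 has 2 annotated starts in this promoter set (48647234 and 48647361). Both lie inside its gene span, which begins at 48647186. The start used for Gimap9 (48676135) also lies inside its span, which begins at 48676121. The NBRE, the site that Nr4a1 is known to bind as a monomer (AAAGGTCA), was in 0 of the 8 members and in 1.34% of all promoters. The core AGGTCA, which the NBRE contains, was in 0 of 8 and in 4607 of the 32851 promoters. The RUNX motif TGTGGT was found in 3 members (Gimap1, Gimap4 and Gimap7) and in 4614 of the 32851 promoters, each time on the strand opposite to the gene. The KLF/SP motif CCACCC was in 5 members (Gimap3, Gimap4, Gimap5, Gimap9 and, at its second start, Gimap8) against 28.1%, and the ETS motif GGAAGT in 2 (Gimap5 and Gimap6) against 19.7%. The CCACCC matches of Gimap8 and Gimap9 lie inside the annotated gene spans. Gimap8 could match in either of 2 windows, while the shares count single promoters. The FOXO motif TGTTTAC (Gimap3; 3.17% of all promoters), the E-box CAGGTG (Gimap9; 17.2%) and the TATA motif TATAAA (Gimap6; 12.4%) were each found in 1. A match, or the lack of one, describes letters in this window and is no evidence about binding. For a motif as rare as the NBRE, a count of 0 in so few windows says little.

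Members differed widely in level. In the unstimulated WT library Gimap6 was highest at 395.9 FPKM, above 98.4% of tested genes, followed by Gimap4 at 193 FPKM, Gimap3 at 107 FPKM, Gimap1 at 76.4 FPKM, Gimap8 at 74.8 FPKM, Gimap9 at 62.1 FPKM, Gimap5 at 33.1 FPKM and Gimap7 at 31.7 FPKM. The unstimulated KO library gave the same order, from 379 FPKM for Gimap6 to 25.6 FPKM for Gimap7. Gimap6 and Gimap4 together made up 60.4% of the summed Gimap FPKM in unstimulated WT and 59.2% in unstimulated KO.

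After anti-IgM the order changed lower down. In stimulated WT the sequence was Gimap6, Gimap4, Gimap3, Gimap8, Gimap5, Gimap9, Gimap1 and Gimap7, and of the 7 pairs of neighbours in this order 1 overlapped between libraries, Gimap9 (28.1 to 29.3 FPKM) and Gimap1 (26.1 to 30.2 FPKM). In stimulated KO, Gimap9 (34.7 to 38.2 FPKM) stood beside Gimap5 (32.7 to 37.1 FPKM), and this was the 1 overlapping pair of 7. By mean FPKM Gimap1 had thus moved from the fourth place to the seventh in both genotypes. In WT its place is less sure, since its range also overlapped that of Gimap5 (30.07 to 31.87 FPKM).

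**Figure D1:**
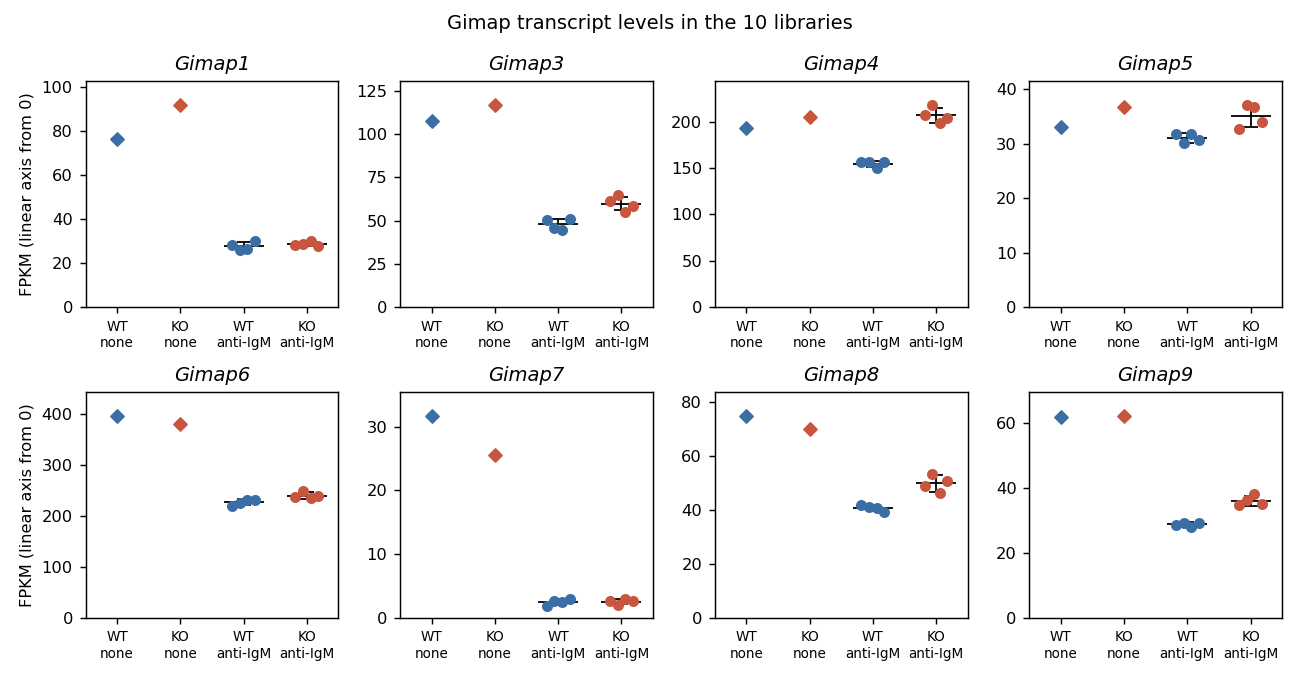
FPKM of each Gimap gene on a linear axis from 0, in unstimulated (diamonds, 1 library each) and anti-IgM libraries (circles, A to D from left to right) of WT (blue) and KO (red); the black mark is the mean and SD of 4 libraries. Gimap7 and Gimap1 are far lower after anti-IgM in both genotypes, while Gimap5 and, in KO, Gimap4 stay near their unstimulated level; WT Gimap4 is lower after anti-IgM (150.0 to 156.6 FPKM against 193 FPKM).

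The response to anti-IgM was tested over all 10 libraries, 8 stimulated against 2 unstimulated, with genotype as a term. At an adjusted p under 0.05, 7 of the 8 members were lower and 0 were higher, where 47.7% of all tested genes were lower and 31.2% were higher. Of these 7, only Gimap4 lost its call in some alternatives: it held in 8 of 22. With quantile normalization all 8 members were called lower. Where the log2 change also had to reach 1 in size, 3 members were lower (12.4% of all tested genes): Gimap7, Gimap1 and Gimap3. The count was 2, without Gimap3, after TPM rescaling (Gimap3 -0.90), with median-of-ratios scaling (-0.88) and without the unstimulated WT library (-0.95), and 4, with Gimap9, after quantile normalization (Gimap9 -1.03) and without the unstimulated KO library (-1.08). The median log2 change was -0.83 for the members and -0.17 for all tested genes. On the 3 other scales tried, the median of all tested genes was -0.031 (TPM), -0.017 (median of ratios) and -0.0022 (quantile), and that of the members -0.67, -0.65 and -0.97. The split of all calls moved with the scale, from 39.5% higher on deposited FPKM to 49.0% (TPM), 50.2% (median of ratios) and 50.1% (quantile).

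Gimap7 had the largest change of the family. It was at 31.7 FPKM in unstimulated WT and at 1.84, 2.70, 2.55 and 2.94 FPKM in stimulated WT libraries A to D. In KO it was at 25.6 FPKM unstimulated and at 2.65, 2.07, 2.88 and 2.56 FPKM after stimulation. All 8 stimulated libraries were far below both unstimulated ones, and the mean left was 7.91% in WT and 9.93% in KO (log2 -3.07, SE 0.128, limma adjusted p = 2.17e-09). Gimap7 is a member that can stimulate GTP hydrolysis by others of the family.

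Gimap1, anchored in the membrane and needed for peripheral lymphocytes, went from 76.4 FPKM to 28.4, 26.1, 26.5 and 30.2 FPKM in WT and from 91.9 FPKM to 28.4, 28.5, 29.9 and 27.9 FPKM in KO. The stimulated values of the genotypes overlapped and all lay far below the unstimulated ones (log2 -1.54, SE 0.0636, limma adjusted p = 2.12e-09). Gimap3, a close relative of Gimap5, went from 107 to 44.5 to 50.7 FPKM in WT and from 117 to 55.2 to 64.5 FPKM in KO (log2 -1.06, SE 0.0706, limma adjusted p = 9.70e-08).

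Gimap9, Gimap6 and Gimap8 fell less. Gimap9 fell by 0.93 on the log2 scale (SE 0.0636, limma adjusted p = 1.20e-07), Gimap6 by 0.73 (SE 0.0436, limma adjusted p = 3.78e-08) and Gimap8, the largest of the family with several GTP-binding domains, by 0.67 (SE 0.0775, limma adjusted p = 9.43e-06). For these 3 and for Gimap1, Gimap3 and Gimap7, all 8 stimulated libraries lay below both unstimulated ones (6 of 8 members; 44.3% of all tested genes), and each kept its call and direction, at an adjusted p under 0.05, in all 22 alternatives.

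Gimap5 and Gimap4 stood apart from those 6. Gimap5 was at 33.1 FPKM unstimulated and at 31.8, 30.1, 31.9 and 30.6 FPKM stimulated in WT, and at 36.7 and then 32.7, 37.1, 36.7 and 33.9 FPKM in KO. Stimulated and unstimulated values overlapped, and the log2 change was -0.077 (95% interval -0.19 to 0.037, limma adjusted p = 0.192). Its sign turned with the scale, to 0.084 after TPM rescaling and 0.096 with median-of-ratios scaling, while quantile normalization called it lower (-0.14, limma adjusted p = 0.0306). Gimap4, which is known for its expression during T cell maturation, was called lower by 0.15 on the log2 scale (value -0.15, SE 0.0635, limma adjusted p = 0.0464), but the call held in 8 of 22 alternatives and was lost without any 1 of WT libraries A to D or KO libraries A, C and D (-0.16 to -0.14). The change was 0.012 after TPM rescaling, 0.026 with median-of-ratios scaling and 0.011 without the unstimulated WT library. It was -0.36 after quantile normalization (limma adjusted p = 0.000255) and -0.31 without the unstimulated KO library (limma adjusted p = 0.000211), so no direction over both genotypes is given for it.

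Because multiplying a library by a factor leaves a ratio of its genes as it was, ratios within libraries were set side by side. The neighbours Gimap5 and Gimap1 stood at a ratio of 0.434 in unstimulated WT and 0.400 in unstimulated KO, and at 1.01 to 1.204 in stimulated WT and 1.15 to 1.30 in stimulated KO. The ratio of Gimap3 to Gimap5 went from 3.24 to 1.40 to 1.66 in WT and from 3.18 to 1.502 to 1.87 in KO. Neither pair showed an overlap between stimulated and unstimulated libraries. The ratio of Gimap6 to Gimap4 was 2.05 in unstimulated WT and 1.85 in unstimulated KO, fell to 1.41, 1.44, 1.55 and 1.48 in stimulated WT libraries A to D, and to 1.14, 1.15, 1.18 and 1.16 in those of KO. The genotypes did not overlap in this last ratio after stimulation.

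**Figure D2:**
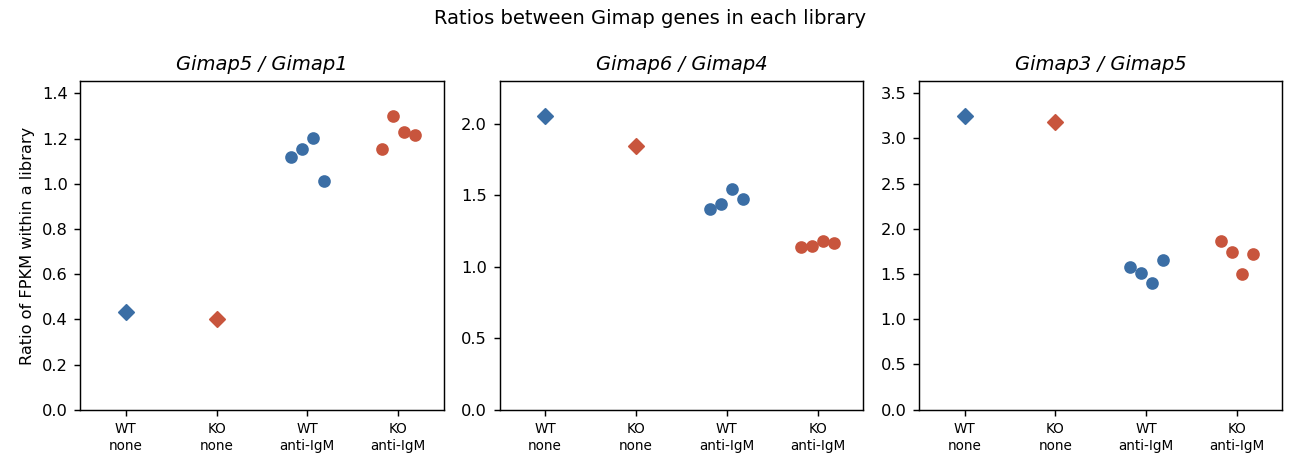
Ratio of FPKM between pairs of Gimap genes within each library, on linear axes from 0, for unstimulated (diamonds) and anti-IgM libraries (circles) of WT (blue) and KO (red). Gimap5 to Gimap1 is at or below 0.434 without and at or above 1.01 with anti-IgM, and Gimap6 to Gimap4 separates the stimulated genotypes, with 1.41 to 1.55 in WT and 1.14 to 1.18 in KO.

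The genotypes were compared over the 4 and 4 stimulated libraries. At an adjusted p under 0.05, 5 of the 8 members were higher in KO (3.91% of all tested genes) and 0 were lower (5.81%); all 8 differences were above 0, so none was lower at an unadjusted p under 0.05 either. The 4 KO libraries all lay above the 4 WT libraries for 6 members (5.96% of all tested genes), namely these 5 and Gimap6. The median log2 difference was 0.23 for the members and -0.024 for all tested genes. With median-of-ratios scaling the share of all calls that were higher in KO went from 40.2% to 57.2%, and with quantile normalization to 52.2%; the median of the members was then 0.26 and 0.24.

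Gimap4 had the largest difference of the 8. Its FPKM were 156.2, 156.6, 149.97 and 156.6 in the stimulated WT libraries, in letter order, and 207, 218, 199 and 204 in the KO ones. The groups lay well apart. The means were 155 ± 3.24 and 207 ± 7.86 FPKM (SD, n = 4 each), 33.7% higher in KO (log2 difference 0.42, SE 0.0303, limma adjusted p = 3.96e-05).

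Gimap9 was at 28.7, 29.2, 28.1 and 29.3 FPKM in WT and 34.7, 36.3, 38.2 and 35.1 FPKM in KO, with no overlap (log2 difference 0.31, SE 0.0348, limma adjusted p = 0.000453). Gimap3 was at 50.2, 45.5, 44.5 and 50.7 FPKM in WT and 61.1, 64.5, 55.2 and 58.3 FPKM in KO (log2 difference 0.32, SE 0.0571, limma adjusted p = 0.00689). Gimap8 was at 41.7, 40.9, 40.5 and 39.1 FPKM in WT and 48.8, 53.4, 46.3 and 50.8 FPKM in KO (log2 difference 0.29, SE 0.0432, limma adjusted p = 0.00263). These 3 were 22.9% to 25.3% higher in KO, and together with Gimap4 they kept their call in all 21 alternatives. One of these left out both letter B libraries, which had the highest summed myeloid markers (values given with the markers). The differences were then 0.40 for Gimap4, 0.32 for Gimap9, 0.26 for Gimap8 and 0.26 for Gimap3 (limma adjusted p = 0.0472), with 3 libraries per genotype.

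Gimap5, whose loss causes a shortage of lymphocytes in mice and of T cells in rats, was 13.0% higher in KO (log2 difference 0.17, SE 0.0439, limma adjusted p = 0.0419). The highest WT library (31.9 FPKM) was just below the lowest KO library (32.7 FPKM). The call held in 10 of 21 alternatives, with adjusted p from 0.0206 to 0.19. It was lost without any 1 of WT libraries A to D or KO libraries B, C and D (0.14 to 0.18) and without both letter B libraries (0.13). Gimap6 was at 219.6, 225, 232 and 231 FPKM in WT and 236, 249.5, 235 and 238 FPKM in KO; its log2 difference of 0.078 (SE 0.0278) did not pass (limma adjusted p = 0.129), and it passed in 1 of 21 alternatives, median-of-ratios scaling (0.11, limma adjusted p = 0.0429). Gimap1 and Gimap7 overlapped between genotypes. Their log2 differences were 0.046 (95% interval -0.061 to 0.15, limma adjusted p = 0.637) and 0.019 (95% interval -0.23 to 0.27, limma adjusted p = 0.951), and the interval of Gimap7 holds differences as large as that of Gimap5.

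**Figure D3:**
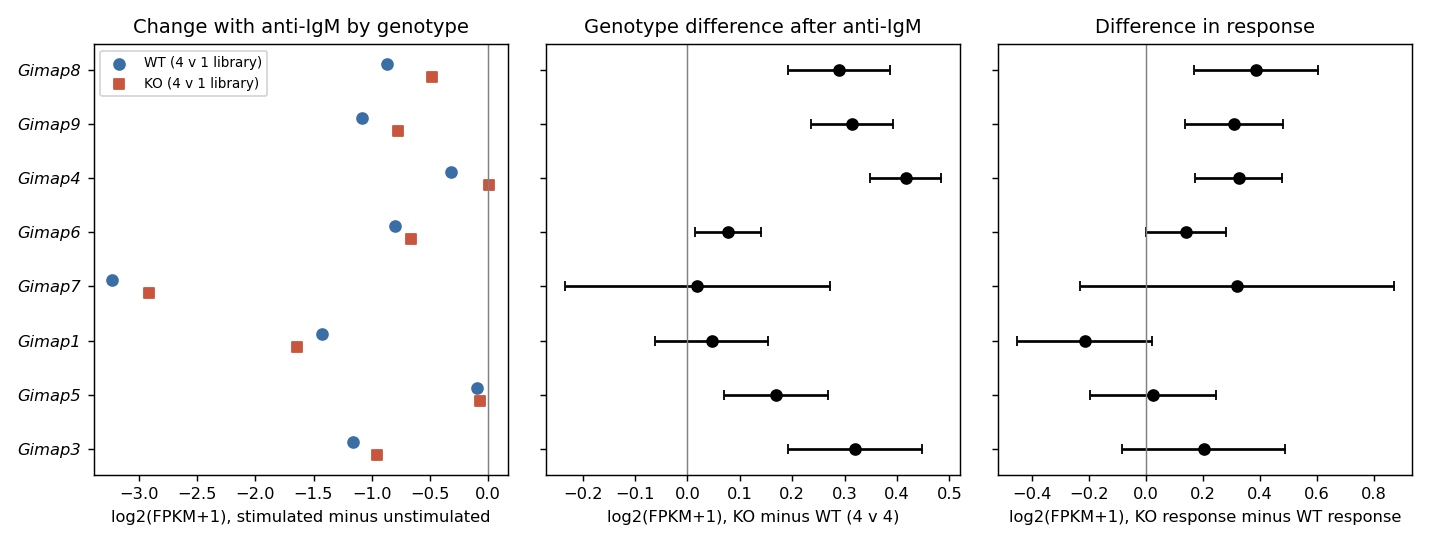
Left, log2 change with anti-IgM in WT (blue circles) and KO (red squares); middle, log2 difference between stimulated genotypes; right, difference between the responses; bars are 95% intervals from limma, and genes are in their order along the chromosome. The middle interval lies above 0 for Gimap8, Gimap9, Gimap4, Gimap6, Gimap5 and Gimap3 before adjustment, and the right one for Gimap8, Gimap9, Gimap4 and, with a lower bound of 0.00032, Gimap6.

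Before stimulation the 2 libraries, with no replicate, differed in both directions. The log2 difference of KO from WT was 0.26 for Gimap1, 0.14 for Gimap5, 0.12 for Gimap3, 0.091 for Gimap4, 0.0048 for Gimap9, -0.062 for Gimap6, -0.097 for Gimap8 and -0.30 for Gimap7. The median was 0.048 for the members and 0.067 for all tested genes. The members called higher in KO after stimulation therefore had unstimulated differences between -0.097 and 0.14.

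A response is the signed log2 change, so for a gene that falls a higher response is a smaller fall. The difference between the responses was tested with 4 group means over the 10 libraries, which assumes that the single unstimulated libraries vary like the stimulated ones. It was called for 3 members, each with a higher response in KO than in WT (18.9% of all tested genes were called in either direction, 4.18% with KO above WT). Gimap8 kept 54.2% of its unstimulated FPKM in WT and 71.3% in KO (log2 difference of responses 0.39, SE 0.0962, limma adjusted p = 0.0233). Gimap4 kept 80.3% in WT and 100.8% in KO (0.33, SE 0.0678, limma adjusted p = 0.0114), and Gimap9 46.4% and 57.9% (0.31, SE 0.0768, limma adjusted p = 0.0232).

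For the other 5 members the difference of responses was 0.32 for Gimap7, 0.20 for Gimap3, 0.14 for Gimap6, 0.025 for Gimap5 and -0.22 for Gimap1, with limma adjusted p from 0.150 to 0.895. The call of Gimap9 was lost without both letter B libraries (0.31, limma adjusted p = 0.0543). The 3 calls ended after TPM rescaling, where the values were 0.21 for Gimap8, 0.15 for Gimap4 and 0.14 for Gimap9 with limma adjusted p from 0.140 to 0.183. In the same rescaling Gimap1 was called the other way (-0.39), its fall being larger in KO. For Gimap8, Gimap4 and Gimap9 the values were 0.47, 0.41 and 0.39 with median-of-ratios scaling. They were 0.44, 0.29 and 0.39 with quantile normalization, and the calls were kept on both scales. The median over all tested genes was -0.096 on deposited FPKM, -0.27 after TPM rescaling and -0.023 with median-of-ratios scaling, so this comparison rests on how the 2 unstimulated libraries are scaled.

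**Figure D4:**
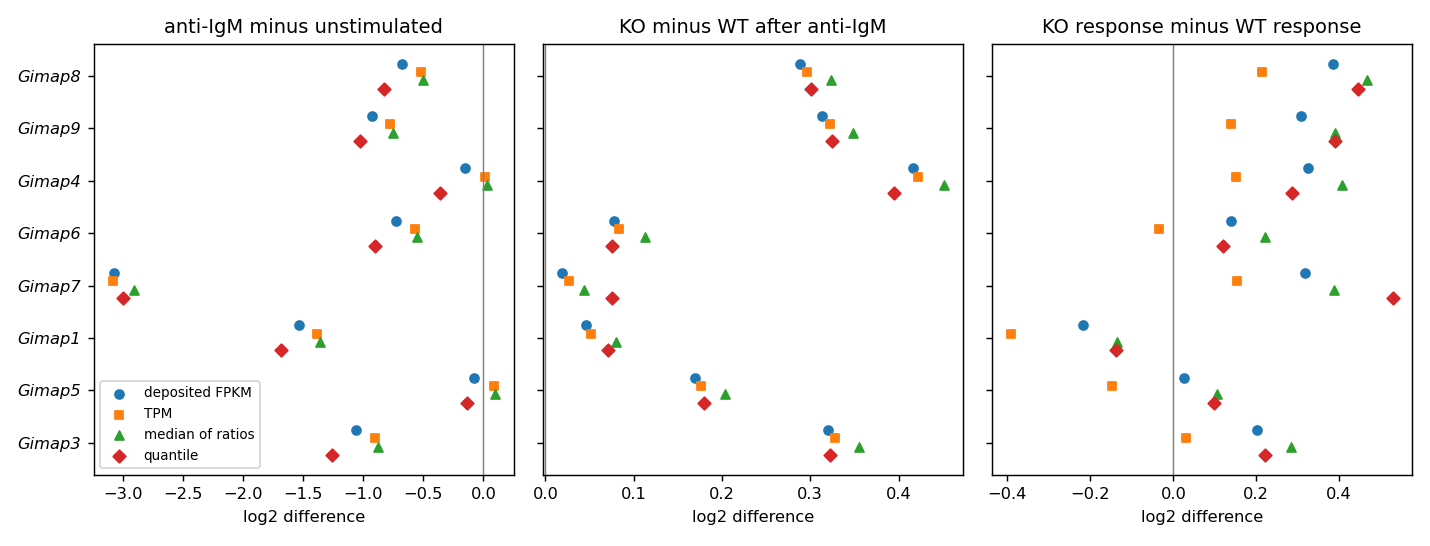
Log2 differences of each Gimap gene on 4 scales (deposited FPKM, TPM, median of ratios, quantile) for the anti-IgM change, the stimulated genotype difference and the difference of responses. The genotype differences of Gimap4 stay between 0.39 and 0.45 on the scales shown, while the anti-IgM changes of Gimap4 and Gimap5 lie on both sides of 0 and the differences of responses shift with TPM.

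Summed over the family, FPKM were 974 in unstimulated WT and 560.2 ± 7.18 (SD, n = 4) in stimulated WT, or 57.5% of the unstimulated value, and 987 and 659 ± 20.7 (SD, n = 4) in KO, or 66.7%. After TPM rescaling the shares were 68.5% and 70.3%. Gimap7 made up 3.26% and 2.59% of the sum in the unstimulated libraries of WT and KO and 0.300% to 0.515% in the stimulated libraries.

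In their order along the chromosome, Gimap8, Gimap9 and Gimap4 at one end and Gimap5 and Gimap3 at the other were called higher in KO, and the 3 genes between them, Gimap6, Gimap7 and Gimap1, were not. The call of Gimap5 held in 10 of 21 alternatives, Gimap6 was called with median-of-ratios scaling, and position was not tested. In the anti-IgM response neighbours could differ widely: Gimap1, with a log2 change of -1.54, is followed by Gimap5 with -0.077. Of the 6 listed protein-coding genes on each side of the cluster, 7 of 12 were tested. None of these was called higher in KO by limma (0 of 7; also 0 at an unadjusted p under 0.05), and 2 were called lower, Tmem176b (log2 difference -0.33, limma adjusted p = 0.0244) and Igf2bp3 (-0.91, limma adjusted p = 0.000193). With anti-IgM 3 flanking genes rose (Repin1, Igf2bp3 and Tra2a) and 2 fell (Lrrc61 and Tmem176b). Repin1, the nearest tested gene before the cluster, had a log2 change of 0.89, and Tmem176b, the nearest after it, -0.40.

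**Figure D5:**
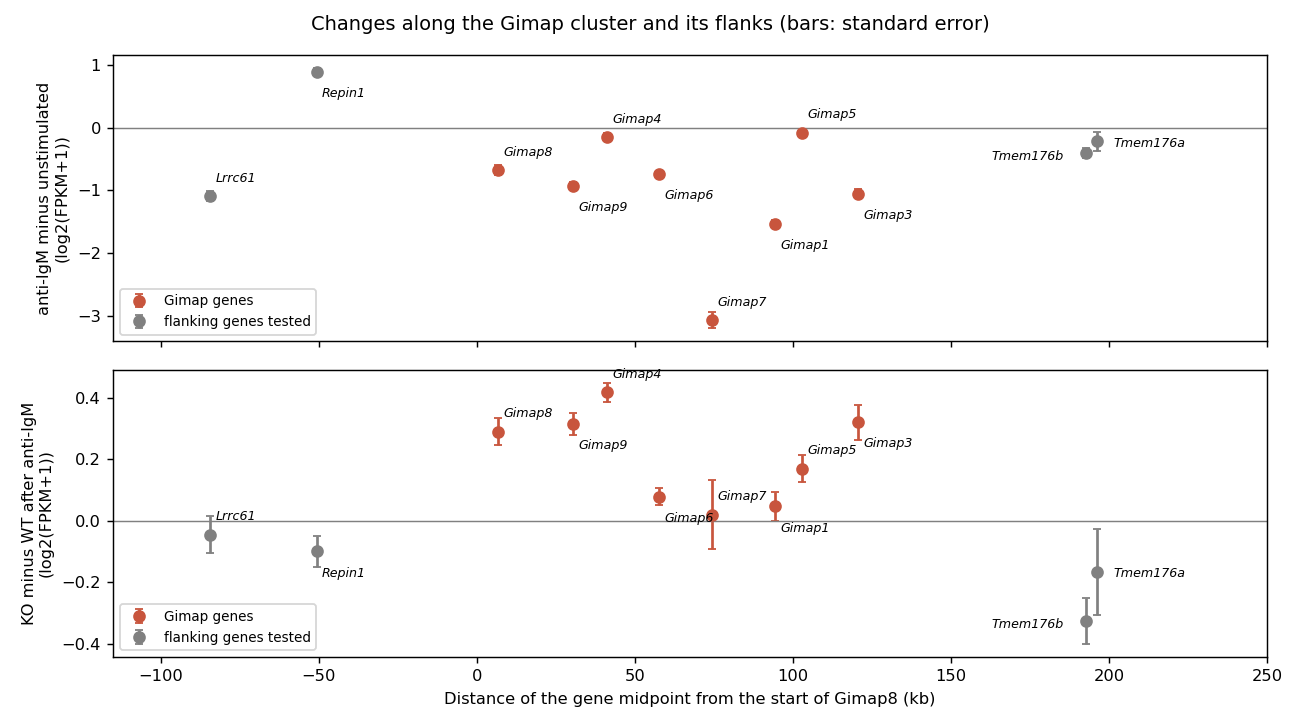
Log2 change with anti-IgM (top) and log2 difference of KO from WT after anti-IgM (bottom) against the distance of each gene's midpoint from the start of Gimap8 in kb; red points are Gimap genes, grey points are the tested flanking genes within this window, and bars are standard errors. Gimap1 and Gimap5 lie next to each other at -1.54 and -0.077 in the top panel, and in the bottom panel Gimap6, Gimap7 and Gimap1 lie near 0 between members at 0.17 to 0.42.

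Some members share sequence, which can move reads between them. Of all 50-base windows in the longest GENCODE M21 coding transcript, 10.0% of those of Gimap5 also occur in Gimap3 and 9.07% of those of Gimap3 in Gimap5. GENCODE also has a gene model on the same strand, Gm28053, that spans Gimap7, Gimap1 and Gimap5. Windows shared with any other gene made up 12.8% for Gimap1, 9.83% for Gimap3, 15.1% for Gimap5 and 2.62% for Gimap7. An antisense gene, Gimap1os, overlaps Gimap1 over 2391 bases, and the use of strand in counting is not given in the sources used here. Values of Gimap1, Gimap3, Gimap5 and Gimap7 are less certain for these reasons, by an amount that was not measured. Gimap4, Gimap8 and Gimap9 shared 0% of their windows with any other gene.

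Gimap genes are also known from T cells, NK cells and endothelial cells, so markers of these were read in the same libraries. The B cell marker Cd79a was at 1112 FPKM in unstimulated WT; 6 of 7 B cell markers fell with anti-IgM and Blnk rose, and 1 was called between genotypes (Cd79b, -0.32, limma adjusted p = 0.00054). Of 10 T cell markers, 9 were at 0.53 FPKM or less in every library, the 3 CD3 chains at 0.33 FPKM or less. The summed level of these 9 was 1.33 to 1.58 FPKM in stimulated WT and 1.15 to 1.60 FPKM in stimulated KO, ranges that overlap. The tenth, the kinase gene Lck, was at 17.5 and 25.0 FPKM in unstimulated WT and KO, 43.7 to 48.1 FPKM in stimulated WT and 64.4 to 66.9 FPKM in stimulated KO (log2 difference 0.48, limma adjusted p = 3.15e-05), and so moved with the Gimap genes between genotypes but against most of them with anti-IgM.

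The 6 NK cell markers found summed to 1.65 to 2.56 FPKM in stimulated WT and 1.70 to 1.85 FPKM in stimulated KO. Of 6 endothelial markers, 5 were at 0.48 FPKM or less in every library; the other, Pecam1, went from 52.2 and 54.6 FPKM to 4.67 to 5.85 FPKM with anti-IgM. The 7 myeloid markers summed to 76.8 and 92.3 FPKM in the unstimulated libraries of WT and KO, 40.4 to 141 FPKM in stimulated WT and 24.5 to 104 FPKM in stimulated KO. The letter B sum was the highest in both genotypes, but the markers were split. Among the stimulated libraries of each genotype, Lyz2, Cd14, Itgam and Emr1 were highest in letter B. S100a8 and S100a9 were lowest there, and Csf1r was not highest. The letter B libraries held 115 and 82.6 FPKM of the macrophage gene Lyz2 in WT and KO, and the other stimulated libraries 15.8 to 53.0 FPKM. The 4 erythroid markers found summed to 97.7 and 33.9 FPKM unstimulated, and to 10.2 to 56.5 and 5.12 to 31.2 FPKM in stimulated WT and KO. No myeloid or erythroid marker was called between genotypes by limma (0 of 7 and 0 of 2 tested; 1 and 0 at an unadjusted p under 0.05). The part of these cells in the Gimap values was not tested. In such bulk samples, fewer cells of a type and less RNA per cell cannot be told apart.

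Genes linked to the family were counted in the same fits. Gabarapl2 is counted in both the partner and survival list and the Atg8 list. Of all tested genes 47.7% fell and 31.2% rose with anti-IgM, and 3.91% were higher and 5.81% lower in KO. Their medians stand beside those of all tested genes, -0.17 for the anti-IgM change and -0.024 for the genotype difference: -0.022 and -0.018 for the septins, -0.037 and -0.033 for partner and survival genes, 0.021 and -0.033 for Atg8 genes, -0.56 and -0.024 for resting lymphocyte genes, and -1.41 and -0.12 for interferon-inducible GTPases. Of 6 septin genes tested, 3 rose and 3 fell with anti-IgM (Sept11 2.06, Sept6 -0.93 and Sept9 -0.83 on the log2 scale), and 0 were called between genotypes by limma (2 of 6 at an unadjusted p under 0.05). Of 9 partner and survival genes, 3 rose and 4 fell with anti-IgM: the survival gene Bcl2l1 rose by 2.80, the death-promoting Bcl2l11 rose by 1.38 and the survival gene Bcl2 fell by 1.37. Between genotypes 1 of the 9 was called, the survival gene Mcl1, lower in KO (-0.14, limma adjusted p = 0.0117). Of 15 genes of the Atg8 proteins and their conjugation, 3 rose and 4 fell with anti-IgM (Gabarapl2, whose protein binds Gimap6, -0.92; Gabarapl1 0.78; Atg5 -0.63), and Gabarapl1 was the 1 called between genotypes, lower in KO (-0.25, limma adjusted p = 0.0147).

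Of 13 genes of resting lymphocytes, 8 fell and 5 rose with anti-IgM. Those with large changes included the quiescence factor gene Klf2 (-2.84) and the cytokine receptor gene Il7r (2.37). Between genotypes 3 were higher in KO (Satb1 0.23, Btg2 0.16, Btg1 0.095) and 2 lower (Ccr7 -0.21, Foxp1 -0.21). Of 10 interferon-inducible GTPases tested, another family of immune GTPases, all 10 fell with anti-IgM (Gbp3 fell by 1.93, Gbp5 by 1.80 and Irgm1 by 1.66). None of the 10 was called between genotypes by limma (0 of 10; 2 lower at an unadjusted p under 0.05).

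The tested genes most like the mean log2 level of the 8 members over the 10 libraries, by Pearson correlation, were Gpr18 (r = 0.995), the Ras activator gene Rasgrp3 (0.995), the lysosomal membrane gene Lamp3 (0.994), the adaptor gene Grap2 (0.993), the NADPH oxidase subunit gene Ncf4 (0.993) and the complement regulator gene Cd55 (0.993). All points share the 2 unstimulated libraries, which set most of the correlation, and no test is attached. These 6 genes were at 6.90 to 225 FPKM in unstimulated WT. Their log2 differences of KO from WT after anti-IgM ran from 0.23 for Ncf4 to 0.54 for Cd55. The members' mean log2 level was itself higher in stimulated KO (5.52 to 5.56) than in stimulated WT (5.31 to 5.38). The choice by correlation therefore favoured such differences, which are not separate evidence. Of the members, Gimap6 followed the mean of the other 7 most closely (r = 0.988), and Gimap4 (0.459) and Gimap5 (0.442) least.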

How the data were processed

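Transcript levels were measured in 10 libraries of mouse B cells. The authors deposited 1 table of FPKM per gene and library, with 2 decimals. The submitters' processing notes name STAR 2.4, RSEM 1.2.14 and mm10; filters, annotation and use of strand are not given in the sources used here. Column names were matched to sample descriptions. No count model fits such values: they were transformed as log2(FPKM + 1), which understates changes near 1 FPKM, and genes averaging 1 FPKM or more over the libraries (10225) were tested with limma 3.58.1 in R 4.3.3 (eBayes with trend, two-sided, Benjamini-Hochberg over all tested genes, called at an adjusted p under 0.05; 95% intervals from the moderated standard errors). The procedure was tested on simulated data. All simulated libraries had independent noise with the spread of the stimulated ones. The simulation therefore cannot check the spread of the unstimulated libraries, the scaling or links between libraries. Alternatives covered pseudocounts, filters, scalings, eBayes options, array weights, the letter as a block and leaving out libraries; leaving out an unstimulated library, or both letter B libraries, was added after seeing the data. Promoter sequences and gene positions are from RefSeq (GRCm38.p6).

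The members and gene lists were chosen with earlier results of these data known. All 8 members are named, with the 6 listed protein-coding genes on each side, the 6 tested genes most correlated with the members' mean, and at most the 3 largest called changes of each list; the markers named, Btg1 and Btg2 were picked after their values were seen. Values of 2 list genes are not reported here.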

Additional observations from a re-analysis of the deposited data

Results flagged for a closer look

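Among 16 groups of 4 stimulated libraries (8 members, each genotype on its own), 1 held a library set apart from the other 3: Gimap4 was at 149.97 FPKM in WT library C, where the others held 156.2 to 156.6 FPKM. Chance sets apart about 1 in 20 such groups. Without that library the log2 genotype difference of Gimap4 was 0.40, against 0.42 with it.

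The response to anti-IgM differed between the genotypes by the test of that difference for 3 members, with a higher value in KO than in WT: 0.39 for Gimap8, 0.33 for Gimap4 and 0.31 for Gimap9 on the log2 scale. Each rests on 1 unstimulated library per genotype, and none of the 3 was called after TPM rescaling; that of Gimap9 was also lost without both letter B libraries (limma adjusted p = 0.0543).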

How the results depend on the processing

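Over 21 alternatives for the genotype comparison, 22 for the response and 18 for the difference of responses, the genotype calls of Gimap3, Gimap4, Gimap8 and Gimap9 and the anti-IgM calls of Gimap1, Gimap3, Gimap6, Gimap7, Gimap8 and Gimap9 held throughout. TPM rescaling moved the count of all genes with a difference of responses from 1931 to 3630. The count of members with a higher response in KO went from 3 to 0 (Gimap1 was then called the other way). The summed level kept after anti-IgM moved from 57.5% to 68.5% in WT and from 66.7% to 70.3% in KO. This rescaling divides each library by its listed FPKM sum. That sum was 674961 in unstimulated WT, 595500 in unstimulated KO and 557214 to 571784 in stimulated libraries. Why these sums differ was not tested. Directions turned for values near 0: the anti-IgM change of Gimap4 with TPM (0.012), median of ratios (0.026) and without the unstimulated WT library (0.011), that of Gimap5 with TPM (0.084) and median of ratios (0.096), and the difference of responses with TPM for Gimap5 (-0.15) and Gimap6 (-0.035). Leaving out 1 stimulated library at a time gave -0.079 to 0.085 for the genotype difference of Gimap7 and -0.0014 to 0.057 for the difference of responses of Gimap5.

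Leaving out both letter B libraries, which had the highest summed myeloid markers in each genotype, lowered the genes called between genotypes from 994 to 660, with fewer samples in the fit, and turned the difference of responses of Gimap5 to -0.0168.

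Over all tested genes the letters did not pair the genotypes, though letter B shared a high myeloid marker sum. Deviations of same-lettered libraries correlated at -0.021, 0.045, 0.0075 and -0.12 for A to D. No WT library correlated best with the KO library of its own letter, and of the KO libraries only B did so with WT. With the letter as a replicate block, 740 genes and 4 members were called between genotypes in place of 994 and 5, and 6 members in place of 7 were lower with anti-IgM.

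The table holds no read totals, so precision rests on 4 libraries per stimulated group and 1 per unstimulated group.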
